A study of Rattus norvegicus with 14 samples.

Results

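Aminoacyl-tRNA synthetases are the enzymes that join each amino acid to its transfer RNA, the step that supplies the ribosome with charged tRNA. The genes described here are cytosolic synthetases, namely Aars, Cars, Gars, Iars, Lars, Mars, Nars, Sars, Tars and Wars, and each is named for the amino acid it handles (alanine, cysteine, glycine, isoleucine, leucine, methionine, asparagine, serine, threonine and tryptophan). They were found as non-control array probes that carry one of these gene names. Of the 10 genes, 9 were on the array under that name, with 12 of the 30367 probes. No probe carried the name Gars. Male Wistar rats had eaten a diet of normal protein content (NPD, 14% of energy as protein) or the isocaloric high-protein diet (HPD, 55%) for 15 days, and the study asked how the colonic epithelium responds. Colonocytes, the epithelial cells lining the colon, were loosened with EDTA from the whole colon except its last segment, and their RNA was measured with 1 one-colour Agilent array per rat. The arrays of 7 rats per diet were analysed here, after the authors had removed 1 outlier of each diet. These are mixed epithelial preparations, so that fewer cells of a type and less RNA per cell cannot be told apart.

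Synthetases fall into class I (here Cars, Iars, Lars, Mars and Wars) and class II (Aars, Nars, Sars and Tars), which differ in the fold of the catalytic domain. Iars, Lars and Mars belong to the cytosolic multisynthetase complex, while the others act outside it. When an amino acid runs short, uncharged tRNA activates the kinase GCN2 and the transcription factor ATF4, and many cytosolic synthetase genes are known targets of ATF4 through C/EBP-ATF response elements (CARE). Wars is in addition a classical interferon-gamma target.

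The CARE letters TGATGNAA, searched on both strands from 250 bases before to 50 bases after the RefSeq start of each gene (GRCr8), were present in 5 of the 8 promoters described, those of Cars, Iars, Mars, Nars and Tars, against 3.82% of 27457 rat promoters of this length. The 30 bases around each match are shown because they hold the letters of the element named above. They are written on the gene's strand from 5′ to 3′ with the match in capitals.
Cars at chr1:208225334-208225363, minus strand: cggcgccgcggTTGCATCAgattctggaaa
Iars at chr17:15193658-15193687, minus strand: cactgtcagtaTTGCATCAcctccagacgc
Mars at chr7:65023752-65023781, minus strand: gcccgttccggTTGCATCAgcgtgggctcc
Nars at chr18:60275778-60275807, minus strand: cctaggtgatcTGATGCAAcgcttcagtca
Tars at chr2:62114811-62114840, minus strand: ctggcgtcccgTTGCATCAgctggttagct
All 5 genes held the same 8 letters, TGATGCAA in Nars and their reverse complement in the other genes. The match ended 7 bases upstream of the start in Nars, 10 in Mars, 17 in Iars and 20 in Tars, whereas it began 18 bases into the transcript in Cars. Lars, Sars and Wars held no such letters in this window. Among other synthetase genes matched to a promoter, the letters were found in 1 of 8 other cytosolic synthetases (Yars) and in 0 of 11 mitochondrial synthetases. A match in the letters is a description of the sequence only.

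The members Nars, Tars and Wars had a pair of probes each, and the results below turn on which probe is read. The first 30 of the 60 bases of these probes are shown, with the position of their first base in the transcript and their place in the rat genome (rn4, minus strand for each). The probe nearer the transcript's 3′ end is called the 3′ probe and the other the 5′ probe.
Nars 3′ probe, from base 1962, chr18:60719992-60720051: cttagttatggagacgttttattgtattat
Nars 5′ probe, from base 568, chr18:60727497-60729193: ttgtcagatgacttgtgtcagtgttacaat
Tars 3′ probe, from base 2334, chr2:60765945-60766004: ctccaaaatggaaaatcatggaggatgttt
Tars 5′ probe, from base 1997, chr2:60766282-60766341: gaaaaagagaaagccagtggcactgtgaac
Wars 3′ probe, from base 2743, chr6:133200937-133200996: agaggccatatctcagggaaagccctggtt
Wars 5′ probe, from base 1296, chr6:133203751-133203810: tttgggggcaactgtgaagtagacgtgtcc
The Nars 5′ probe spans an intron, since its 60 bases cover 1697 bases of the genome, as do the Mars probe (561 bases of chr7:67253210-67253770) and the Sars probe (867 bases of chr2:203996297-203997163). The 60 bases of the Nars 3′ probe hold a stop codon in every forward reading frame and the polyadenylation signal AATAAA. The Aars probe (chr19:40974359-40974418) also holds that signal. The remaining single probes lay at chr1:203935467-203935526 (Cars), chr17:20896021-20896080 (Iars) and chr18:35411390-35411449 (Lars). Exon and UTR annotation of this build was not used here.

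Between 18839 and 20976 of the 30367 probes were well above background per array, and the lowest correlation between 2 arrays was 0.970. The 8 markers of colonocyte epithelium (Epcam, Cdh1, keratins, Vil1, Cdx1, Cdx2) were well above background on all 14 arrays. The arrays came from 2 slides, which were also separate scan runs, with 4 NPD and 3 HPD arrays on slide 1 and 3 NPD and 4 HPD arrays on slide 2. Between the slides, 40.1% of all probes differed at a q-value below 0.1 in a fit of diet and slide. Each slide held different rats, so that slide, scan run and rats cannot be told apart. Values within each slide are therefore given beside the results. Signals are log2 values of the background-subtracted brightness relative to the array's median probe, and a log2 fold change is the HPD mean minus the NPD mean. The median log2 fold change of all probes was 0.11, and 35.8% of them were lower on the HPD. This median differed with brightness, and over probes well above background it was 0.048. With probes ranked by mean signal and split into 10 parts, it was 0.24 in the dimmest part, with 4.64% lower. The brightest probe of each synthetase lay in parts 7 to 10. Their medians were -0.036, 0.021, 0.085 and 0.13, with 54.7%, 46.6%, 34.5% and 23.7% lower.

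None of the synthetase mRNAs differed between the diets beyond the threshold of the test. All 12 probes were well above background on all 14 arrays and none was saturated. With limma and Benjamini-Hochberg adjustment over all probes, 0 of 12 probes were called at a q-value below 0.1 (lowest q = 0.437), where 0.056% of all probes were called, and 2 of 12 had an unadjusted p under 0.05, where 11.4% of all probes did. As lower on the HPD, 0 of the 30367 probes of the array were called, so that lower synthetase probes without a call are not set apart by it. The values of NPD and HPD rats overlapped for every probe, while 0.273% of all probes had groups without overlap. With 1 probe per gene, the brightest, 6 of the 9 genes were higher and 3 (Lars, Mars and Sars) lower on the HPD, and their median log2 fold change was 0.08. The 95% intervals of the 12 probes reached from -0.79 to 0.77, that is from 0.579 to 1.71 times the NPD level, so that differences beyond that range lay outside the interval of each probe.

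**Figure D1:**
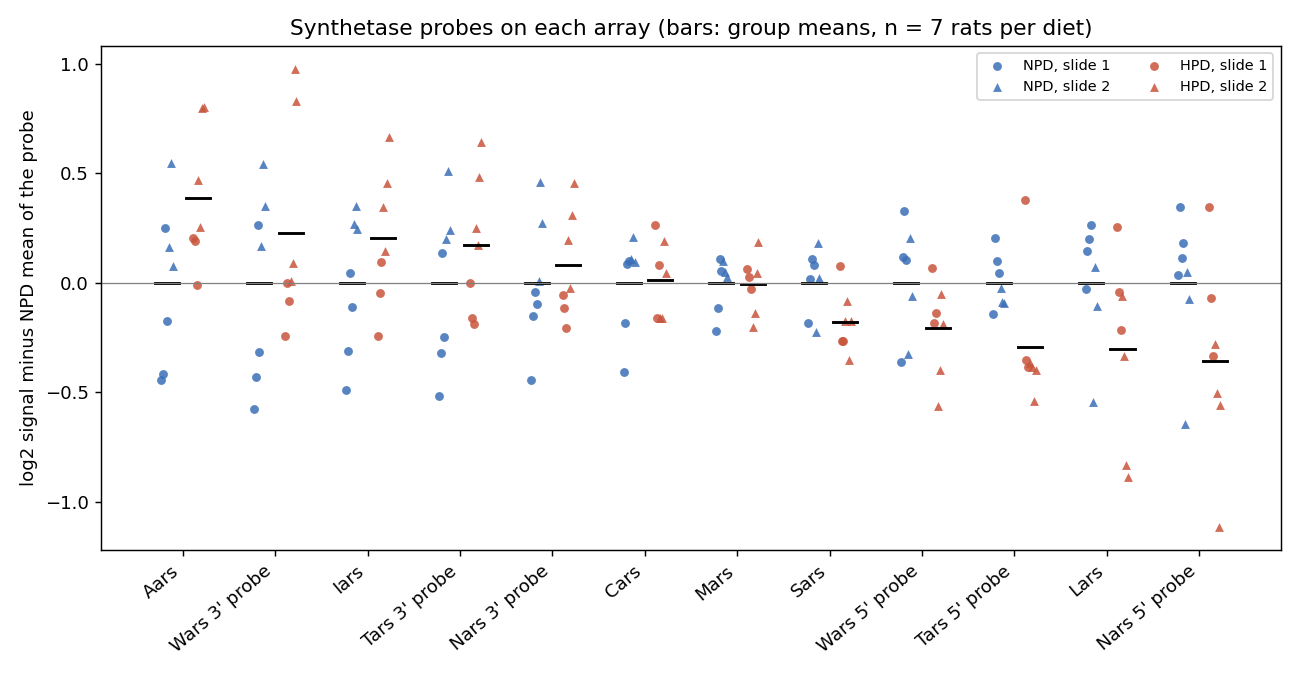
Log2 signal of each synthetase probe on each array minus the mean of the 7 NPD arrays of that probe; circles are arrays of slide 1, triangles arrays of slide 2, and black bars the means of 7 rats per diet. The diets overlap for all 12 probes, with Aars at one end and the Nars 5′ probe at the other.

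Among the class II enzymes, Aars, which charges tRNA with alanine, showed the largest positive difference of the 12 probes. Its signal was 5.10, 5.63 and 6.09 (lowest, median, highest) in the NPD rats and 5.53, 5.80 and 6.35 in the HPD rats. Of the 7 HPD rats, 6 lay above the NPD mean and 2 above the highest NPD rat, and the highest values of both diets were on slide 2. The log2 fold change was 0.39 with a 95% interval from 0.0010 to 0.77, a 1.31-fold level, and it did not pass the threshold (limma q = 0.438). An exact two-sided permutation test over the rats gave p = 0.0548 for Aars, and p = 0.0392 when arrays were regrouped only within their slide. The difference of Aars was 0.32 within slide 1 and 0.32 within slide 2.

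Sars, the seryl-tRNA synthetase, was at 3.28, 3.53 and 3.69 in the NPD rats and at 3.16, 3.33 and 3.58 in the HPD rats. In 6 of the 7 HPD rats it lay below the NPD mean, and in 3 below the lowest NPD rat. The log2 fold change of Sars was -0.18 (95% interval from -0.40 to 0.04, limma q = 0.488), -0.16 within slide 1 and -0.19 within slide 2. The exact permutation test gave p = 0.0484 for Sars, and p = 0.0604 within slides, while its unadjusted limma p was 0.109. Apart from Aars, Sars and the Tars 5′ probe, the exact permutation p over all splits ran from 0.107 (Nars 5′ probe) to 0.920 (Mars). These permutation p values were not adjusted for the number of probes.

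Tars, the threonyl-tRNA synthetase, gave opposite signs at its probes. The 3′ probe was at 6.09, 6.74 and 7.12 in the NPD rats and at 6.42, 6.78 and 7.25 in the HPD rats, with a log2 fold change of 0.17 (95% interval from -0.22 to 0.56), or 0.12 within slide 1 and 0.069 within slide 2. The groups overlapped over almost their whole range. The 5′ probe was at 4.39, 4.51 and 4.74 in the NPD rats and at 3.99, 4.15 and 4.91 in the HPD rats. Here 6 of the 7 HPD rats lay below the lowest NPD rat, between 3.99 and 4.18, and HPD replicate 1 lay above the highest NPD rat. The log2 fold change of the 5′ probe was -0.29 (95% interval from -0.58 to -0.0042, limma q = 0.437), the lowest unadjusted p of the 12 probes, and the exact permutation p was 0.0385, or 0.0457 within slides. It was -0.17 within slide 1 and -0.35 within slide 2. With each array left out in turn, the log2 fold change of the 5′ probe ran from -0.40 to -0.25. The value of -0.40 was without HPD replicate 1, the array apart from the other HPD rats. Its limma q of 0.107 was the lowest of these fits.

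Nars, the asparaginyl-tRNA synthetase, also differed by probe. The 3′ probe was at 1.91, 2.31 and 2.81 in the NPD rats and at 2.15, 2.33 and 2.81 in the HPD rats, with a log2 fold change of 0.08 (95% interval from -0.24 to 0.40). The 5′ probe was at 0.054, 0.75 and 1.05 in the NPD rats and at -0.41, 0.36 and 1.05 in the HPD rats, with a log2 fold change of -0.36 (95% interval from -0.79 to 0.07, limma q = 0.476). The 3′ probe showed near-equal medians, while 6 of the 7 HPD rats lay below the NPD mean at the 5′ probe. Within slides 1 and 2 the log2 fold change was 0.057 and -0.012 at the 3′ probe and -0.19 and -0.39 at the 5′ probe.

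Among the class I enzymes, the estimates for Lars, Iars and Mars of the multisynthetase complex differed in sign, each with a 95% interval that held 0. Lars, whose protein also senses leucine for the mTORC1 pathway, was at 2.45, 3.07 and 3.26 in the NPD rats and at 2.11, 2.78 and 3.25 in the HPD rats. It lay below the NPD mean in 6 of 7 HPD rats, and HPD replicates 6 and 7 were the lowest arrays. The log2 fold change of Lars was -0.30 (95% interval from -0.70 to 0.09, limma q = 0.503), with -0.15 within slide 1 and -0.34 within slide 2.

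Iars, the isoleucyl-tRNA synthetase, was at 5.10, 5.63 and 5.94 in the NPD rats and at 5.35, 5.73 and 6.25 in the HPD rats, with a log2 fold change of 0.20 (95% interval from -0.16 to 0.56). The difference of Iars was 0.15 within slide 1 and 0.11 within slide 2, below the NPD SD of 0.32. Mars, which charges both initiator and elongator methionine tRNA, was at 5.07, 5.34 and 5.40 in the NPD rats and at 5.09, 5.32 and 5.48 in the HPD rats. Its log2 fold change of -0.0071 had the narrowest interval of the 12 probes, from -0.22 to 0.20, and it was 0.065 within slide 1 and -0.087 within slide 2.

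Outside the complex, Cars, the cysteinyl-tRNA synthetase, was at 2.69, 3.19 and 3.30 in the NPD rats and at 2.93, 3.14 and 3.36 in the HPD rats. Its log2 fold change was 0.013 (95% interval from -0.25 to 0.28), and the sign differed between slides, with 0.16 within slide 1 and -0.16 within slide 2. Wars, the tryptophanyl-tRNA synthetase, was at 6.24, 6.98 and 7.36 in the NPD rats and at 6.57, 6.82 and 7.79 in the HPD rats at its 3′ probe. The log2 fold change of this probe was 0.22 (95% interval from -0.27 to 0.72), and HPD replicates 6 and 7 were the highest arrays. The Wars 5′ probe was at 1.54, 2.01 and 2.23 in the NPD rats and at 1.34, 1.72 and 1.97 in the HPD rats, with a log2 fold change of -0.21 (95% interval from -0.50 to 0.09, limma q = 0.515). Within slides 1 and 2 the log2 fold change was 0.15 and 0.12 at the 3′ probe of Wars and -0.13 and -0.24 at its 5′ probe.

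**Figure D2:**
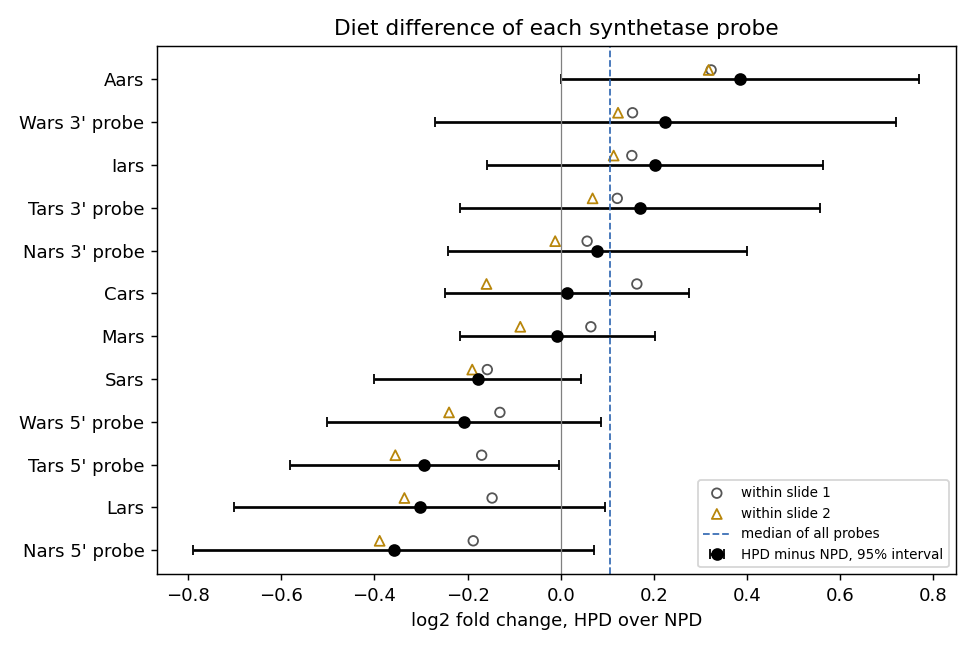
Log2 fold change of each synthetase probe (HPD over NPD, black points with 95% intervals from limma, 7 rats per diet), with the difference within slide 1 (circles) and slide 2 (triangles) and the median of all probes (dashed, 0.11). Aars and the Tars 5′ probe are the 2 probes whose interval leaves out 0.

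Of the 9 genes, 6 had the same sign within both slides, and Cars, Mars and Nars did not. In class I 2 of 5 genes were lower on the HPD and in class II 1 of 4, with medians of 0.013 and 0.12. The 5 genes shown with the CARE letters had log2 fold changes from -0.0071 to 0.20 with a median of 0.08, and Lars, Sars and Wars, without them, had -0.30, -0.18 and 0.22. These sets were described only and their difference was not tested. All values of the classes and of these sets are of the brightest probe of each gene, the 3′ probe in Nars, Tars and Wars. They depend on that choice, since the 5′ probes stood at -0.36 in Nars, -0.29 in Tars and -0.21 in Wars.

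The genes also varied from rat to rat within a diet. NPD replicate 1 had 8 of the 9 genes below their mean over all 14 arrays, and NPD replicate 6 had 0 of 9 below it. The median of the 9 genes relative to that mean ran from -0.48 to 0.27 in the NPD rats and from -0.18 to 0.41 in the HPD rats, and both ends of the NPD range lay in replicates 1 and 6. Between the slides, 7 of the 12 probes differed at a q-value below 0.1, where 40.1% of all probes did. On slide 2, Aars (0.46), Iars (0.49) and the 3′ probes of Nars (0.39), Tars (0.53) and Wars (0.60) were higher in log2 signal, while Lars (-0.43) and the Nars 5′ probe (-0.49) were lower. With slide as a block, 0 of 12 probes were called for diet (lowest q = 0.297), where 0.0889% of all probes were called, and Aars stood at 0.32 and the Tars 5′ probe at -0.26.

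In Nars, Tars and Wars alike the 3′ probe had a positive and the 5′ probe a negative log2 fold change. To compare them, the log2 difference between both probes was taken on each array and set relative to its NPD mean, a comparison chosen after seeing the data. For Tars this difference ran from -0.53 to 0.60 in the NPD rats and from -0.38 to 1.04 in the HPD rats, with medians of 0.037 and 0.56. For Wars it ran from -0.55 to 0.49 in the NPD rats and from -0.31 to 1.03 in the HPD rats, and for Nars from -0.50 to 0.65 and from -0.41 to 1.42. In each gene the groups overlapped, with HPD replicate 1 the lowest HPD array. The HPD mean exceeded the NPD mean by 0.44 in Nars, 0.46 in Tars and 0.43 in Wars, and the exact permutation test gave p = 0.164, 0.0909 and 0.105 (0.164, 0.157 and 0.157 adjusted over the 3 genes). Within slides the exact permutation p was 0.0702 for Nars, 0.0237 for Tars and 0.0261 for Wars (0.0702, 0.0392 and 0.0392 adjusted), and the mean difference was 0.24, 0.29 and 0.28 on slide 1 and 0.38, 0.42 and 0.36 on slide 2.

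The same quantity moved with slide and in other transcripts. Slide 2 exceeded slide 1 by 0.93 in Nars, 0.79 in Tars and 0.81 in Wars. There were 1487 transcripts with at least 2 detected probes 60 or more bases apart, Nars, Tars and Wars among them. On each array this difference was summarised as its median over these transcripts. The mean of the array medians was 0.10 higher on the HPD (exact permutation p = 0.200, and 0.133 within slides) and 0.23 higher on slide 2. The 3′-most probe had the higher log2 fold change in 65.8% of these transcripts, with a median difference of 0.094. The part of probe position or RNA integrity in the synthetase values was not tested.

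**Figure D3:**
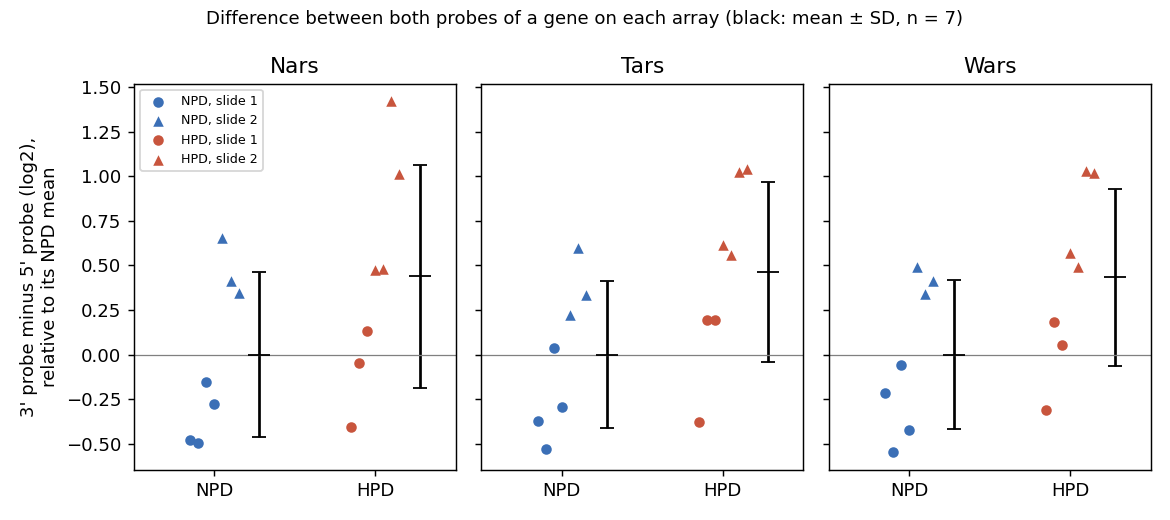
Log2 difference between the 3′ and the 5′ probe of Nars, Tars and Wars on each array, relative to the mean of the 7 NPD arrays; circles are slide 1, triangles slide 2, and black marks the mean ± SD of 7 rats. The mean is higher in HPD rats within each slide, and slide 2 lies above slide 1 in both diets.

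The remaining synthetases and their partners gave the surroundings of these values. All 10 other cytosolic synthetase genes were on the array, 6 lower and 4 higher on the HPD, where 35.8% of all probes were lower. Their median log2 fold change was -0.058, with 0 called by limma. The lowest unadjusted p values belonged to Hars, the histidyl-tRNA synthetase (-0.34 ± 0.14 SE, q = 0.417, the one of the 10 with p under 0.05), and Eprs, the fused glutamyl-prolyl enzyme of the complex (-0.22 ± 0.15, q = 0.515). Of the 17 mitochondrial synthetases 14 were on the array (not Cars2, Hars2 and Iars2 by name), with 8 lower, 6 higher and a median of -0.032. limma called 0 of them, and 3 had an unadjusted p under 0.05, each lower, where 5.55% of all probes were lower at that p. Vars2 (-0.42 ± 0.12 SE) and Fars2 (-0.51 ± 0.21 SE) had the lowest, both with q = 0.417, and lay below the NPD mean in 7 and 6 of the 7 HPD rats.

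The median of the 3 scaffold genes of the complex was -0.29 (log2 fold change) and 0 called. Aimp2 was at 4.16 ± 0.12 (SD, n = 7) in the NPD rats and 3.87 ± 0.08 in the HPD rats, and all 7 HPD rats had a value under the NPD mean (log2 fold change -0.29, limma q = 0.417), and Eef1e1 stood at -0.29 (q = 0.520). Of the 8 editing and accessory factors 6 were on the array, with 0 called and a median of -0.08. Dtd1, which removes D-amino acids from tRNA, stood at -0.36 (limma q = 0.417), and Sephs2, which makes the selenium donor for selenocysteine tRNA, at 0.22 (q = 0.434).

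Genes of the amino acid response share the ATF4 pathway with the synthetases. Of the 18 on the array, 14 were higher and 4 lower on the HPD, where 35.8% of all probes were lower. Their median log2 fold change was 0.14 beside 0.11 for all probes, and limma called 0. The lowest p belonged to Chac1, a glutathione-degrading ATF4 target (0.33 ± 0.11 SE, limma q = 0.417), and to Slc3a2, the heavy chain of the leucine transporter (-0.35 ± 0.17, q = 0.445). CARE letters were found in 3 of the 17 promoters matched for this list. In the interferon-gamma list, read beside Wars, 6 of 10 genes were lower with a median of -0.15 and 0 called. Psmb8, an immunoproteasome subunit, stood at -0.74 (q = 0.425) and Tap1, a peptide transporter of antigen presentation, at -0.35 (q = 0.562), while Ido1 was well above background on no array.

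**Figure D4:**
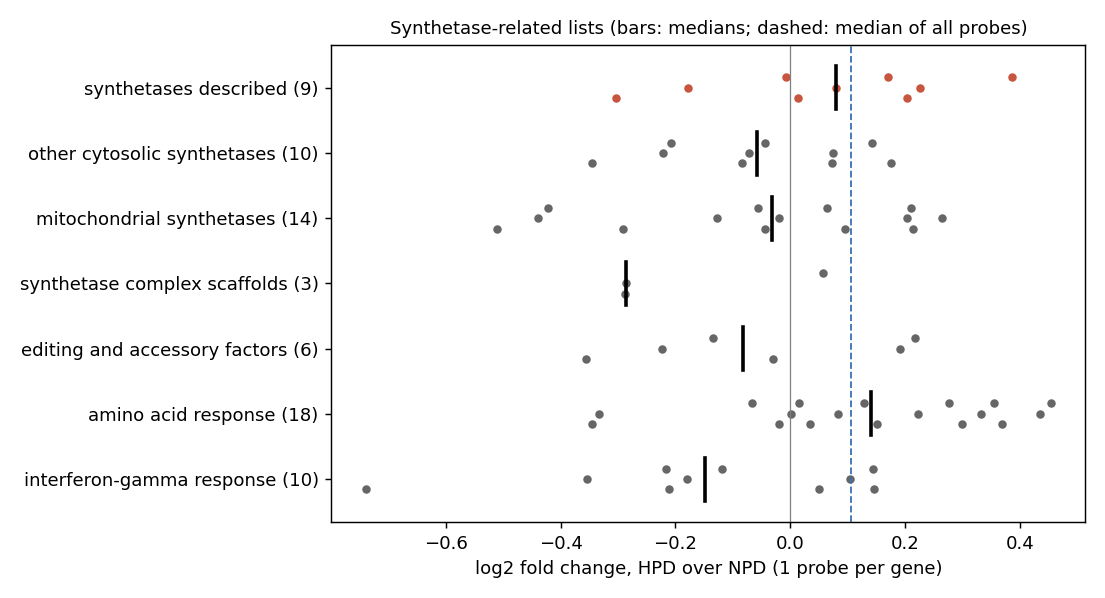
Log2 fold change (HPD over NPD, 1 probe per gene) of the genes of each synthetase-related list, with the number of genes on the array in brackets, black bars for list medians and a dashed line for the median of all probes (0.11). The 9 synthetases described run from -0.30 (Lars) to 0.39 (Aars), and limma called 0 genes of these lists.

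Summed levels of markers of other cells in the preparation overlapped between the diets, while single markers went both ways. Signals were summed on the linear scale, so that the brightest marker of a list weighs most. Among the immune markers this was Cd14, with an NPD mean of 6.16 beside 6.46 for the sum and 2.47 for Itgam, the next. The immune sum therefore mostly describes Cd14 and says little on the T and B cell markers. The summed level of 9 immune markers, on the log2 scale, ran from 6.13 to 6.80 in the NPD rats and from 6.10 to 6.61 in the HPD rats (exact permutation p = 0.466), with 6 of the 9 well above background on all arrays, Cd3e on 3 arrays and Cd79b on 7. For 7 stromal and muscle markers it ran from 3.67 to 4.78 and from 3.38 to 4.46 (exact permutation p = 0.449), with Col3a1 well above background on 1 array. For 5 cycling cell markers it ran from 6.80 to 7.60 and from 6.75 to 7.74 (exact permutation p = 0.861), and for 6 goblet cell markers from 11.6 to 12.2 and from 11.5 to 12.6 (exact permutation p = 0.479). limma called 0 of these markers, and those with an unadjusted p under 0.05 were higher on the HPD in Spink4 (log2 fold change 1.82), Col3a1 (0.61), Col1a1 (0.35) and Itgam (0.34) and lower in Agr2 (-0.63) and Top2a (-0.68). Their part in the synthetase values was not tested.

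The direction of several synthetases changed with the processing. The deposited table differed by less than 0.001 from median pixel signals without background subtraction, on the log2 scale, averaged over all spots of a gene name and shifted by 1 constant per array, for all 26261 gene names compared. There, 7 of the 9 genes were lower on the HPD with a median log2 fold change of -0.15, and 0 were called, where 0.0681% of its gene names were. Nars (-0.18), Tars (-0.19), Wars (-0.11) and Cars (-0.13) were lower there, against 0.08, 0.17, 0.22 and 0.013 at their brightest probes. Aars (0.23) and Iars (0.06) were the 2 genes higher in that table. With slide as a block the deposited table called 0 of the 9, with Sars nearest the threshold (limma q = 0.101), where 10.5% of gene names were called in either direction and 6.5% as lower. After normexp background correction Sars and the Tars 5′ probe were called, 2 of 12 probes, where 16.9% of all probes were called, and again with slide as a block, where 27.9% were.

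**Figure D5:**
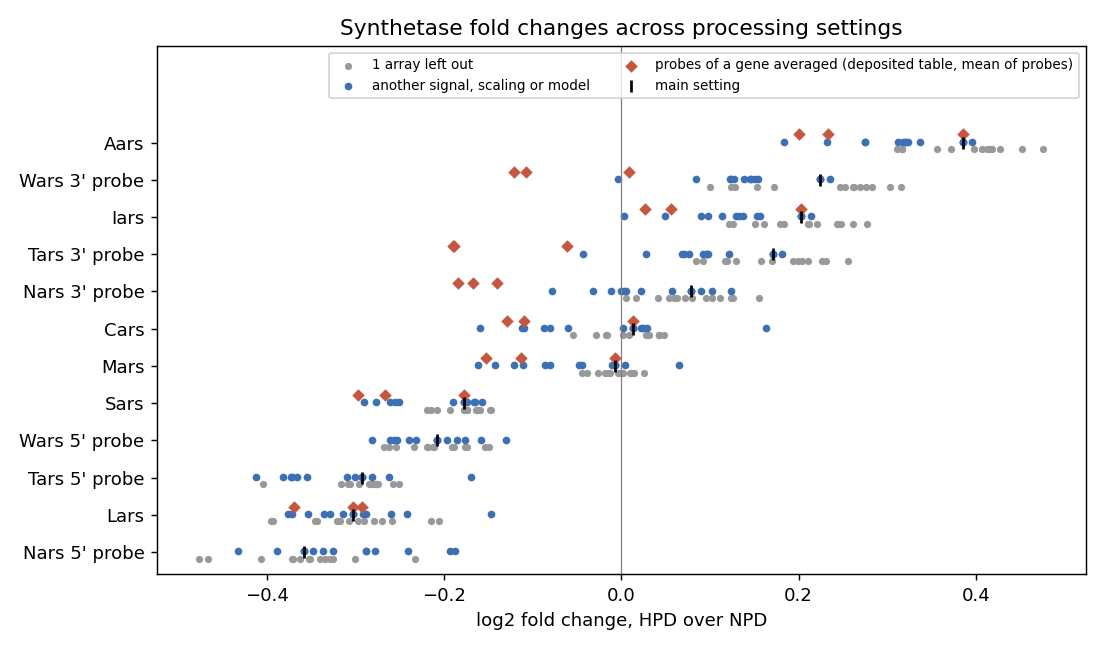
Log2 fold change of each synthetase probe or gene under the main setting (bars), with 1 array left out (grey), under another signal, scaling or model (blue) and with all probes of a gene averaged (red). Aars and Iars stay above 0 and Lars, Sars and the 5′ probes below 0, while Cars, Mars and the 3′ probes of Nars, Tars and Wars have values on both sides.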

How the data were processed

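Each array's scanner file, deposited by the authors, holds a linear intensity per spot from Agilent Feature Extraction 10.7.3.1. A second file deposited by the authors holds their normalized log2 values, averaged by gene name. Samples excluded by the authors as outliers were not analysed here. Spots that were controls or carried an outlier mark were dropped, and background-subtracted intensities were log2-transformed, averaged over the spots of a probe and centred on each array's median probe. The methods name neither the signal column nor the centring statistic. The diet comparison used limma 3.58.1 (R 4.3.3, package data.table, version 1.17.8), with diet as the only term, no filter on signal and Benjamini-Hochberg adjustment over 30367 probes; a q-value below 0.1 was called. Single values were compared by exact two-sided permutation over 1716 distinct splits, or 1225 regroupings within slides, which were chosen after seeing the data. The number of arrays limits the precision. 0 columns belonged to other samples.

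All probes of the synthetases were described, the brightest stood for a gene in counts, and of each related list the 2 genes with the lowest unadjusted p were named. The synthetases and the lists were chosen with earlier results of these data known. Alternatives were other signal columns (mean or median of the pixels), another centring (75th percentile or mean), quantile and cyclic loess normalization, normexp (offset 50), a filter on dim probes, slide or replicate number as a block, each slide alone, a trend in eBayes, a q-value below 0.05, the deposited table, the mean of a gene's probes and leaving out each array. The fit was tested on simulated data. Promoters of 8 genes, matched by accession, came from RefSeq (GRCr8), and some sequence results are not reported here. Symbols follow the array's own annotation.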

Additional observations from a re-analysis of the deposited data

Results flagged for a closer look

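In 24 groups of 7 arrays (12 probes, 2 diets), 2 held an array apart from the rest by the size of its gap to the next array within the group's range (Dixon's 95% criterion), where chance gives about 1 in 20 groups. At the Tars 5′ probe, HPD replicate 1 was at 4.91 and the next array at 4.18, a gap of 0.796 of the range. At the Nars 5′ probe, NPD replicate 5 was at 0.054 and the next array at 0.628, a gap of 0.577 of the range.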

How the results depend on the processing

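Under 31 alternatives Aars and Iars remained higher and Lars, Sars and, where measured, the 5′ probes of Nars, Tars and Wars lower on the HPD. Leaving out each array in turn gave 0 member probes called, 2 to 4 genes lower, a median log2 fold change from 0.0051 to 0.16, and 0 called in the other lists; Cars ran from -0.055 to 0.048 and Mars from -0.044 to 0.026. Of the other fold changes, these moved by over 1.5 times: without NPD replicate 1, Iars was 0.12, Nars 0.0051, Tars 0.084 and Wars 0.13; without HPD replicate 7 they were 0.13, 0.017, 0.092 and 0.12; without HPD replicate 6, Nars was 0.041, its 5′ probe -0.23 and Wars 0.10; and without NPD replicate 6 or 7 or HPD replicate 3, Nars was 0.16, 0.12 and 0.13. The count of genes lower, 3, became 5 with the mean pixel signal, after normexp, within slide 2 and with the mean of all probes, and 7 after normexp with slide as a block, and in the deposited table whether or not it had that block. The median, 0.08, became -0.00055 with the mean pixel signal, -0.032 after normexp, -0.078 after normexp with slide as a block, -0.012 within slide 2, -0.15 in the deposited table, -0.12 there with slide as a block and -0.0071 with the mean of all probes. In the same settings Nars had these reversed values: -0.00055, -0.032, -0.078, -0.012, -0.18, -0.17 and, with the mean of all probes, -0.14.

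Cars was -0.080 with the mean and -0.087 with the median pixel signal, -0.060 with centring on the mean, -0.11 after normexp with or without slide as a block, -0.16 within slide 2, and -0.13 in the deposited table (-0.11 once slide was a block). Mars was 0.0038 with centring on the 75th percentile and 0.065 within slide 1. Tars was -0.044 after normexp with slide as a block, -0.19 in the deposited table with or without that block, and -0.061 with the mean of all probes. Wars was -0.0032 after normexp with slide as a block, -0.11 in the deposited table and -0.12 there once slide was a block. The cause of these changes was not tested, except that the deposited table and the mean of all probes include the 5′ probes by construction.

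Normexp, which called 16.9% of all probes and 27.9% with slide as a block, called 2 member probes, Sars (q = 0.0893) and the Tars 5′ probe (q = 0.0905), and 2 with slide as a block. It also called 1 of 10 other cytosolic synthetases (2 with slide as a block), 3 of 14 mitochondrial synthetases (3) and 3 genes of the scaffold, accessory, amino acid response and interferon-gamma lists (4). With that block, the deposited table called 1, 3 and 3 of them and 10.5% of all gene names. The filter on dim probes took away no member.

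With replicate number as a block, a replicate pairing, 0 member probes were called (Aars q = 0.193); with complete pairs the block cannot move a fold change, such as 0.39 for Aars. Deviations of same-numbered arrays from their diet means, not adjusted for slide, correlated between -0.09 and 0.39, above 0.1 in 6 of 7 pairs. These 6 pairs each shared a slide, while the pair of replicate 4, at -0.09, was split over the slides. As 1 NPD array correlated best with its own number, the numbers were not taken to pair the rats.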
